A study of Saccharomyces cerevisiae with 18 samples.

Results

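The K146D and K152L variants of Ste12 were compared directly with each other by RNA-seq, without wild type in the contrast. Each is a single amino acid change in the DNA-binding domain, and the study places both in 1 class, with reduced mating and hyper-invasive growth. The members are the 5 K146D libraries and the 5 K152L libraries among 35 expression libraries, which cover 7 forms of Ste12 with 5 replicates each. All strains were BY4705 MATα yeast whose chromosomal STE12 had been deleted, carrying STE12 or a variant of it under its own promoter on the centromeric LEU2 plasmid pRS415, grown to exponential phase with no pheromone or other treatment named in the sources used here. The chromosomal copy had first been replaced by URA3, which was then selected against, and the study left URA3 out of its tests because full loss was not established. Levels are TMM-normalised UMI counts scaled to a common library total (CPM), and every log2 fold change is K146D minus K152L, so a negative value means a higher level in K152L.

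Ste12 is the transcription factor at the end of the pheromone response and filamentous growth MAPK cascades of budding yeast. With pheromone signalling through the kinase Fus3 it activates genes for cell cycle arrest, agglutination, cell fusion and nuclear fusion, in part together with the MADS-box factor Mcm1. With the partner Tec1 and the kinase Kss1 it activates genes for filamentous and invasive growth. Without pheromone it is held in check by Dig1 and Dig2 and sustains only a basal level of its targets.

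K146D libraries held between 1039390 and 5054173 UMIs, with a median of 3923884, and K152L libraries between 2017826 and 4477222, with a median of 3781096. K146D replicate 5 was the shallowest, and K146D replicate 2 was the one library with 1 reverse transcription well listed, where each other library had 2. The first principal component of the 35 libraries took 54.5% of the variance and parted replicates 1 to 3 from replicates 4 and 5 in every genotype. This split is not that of the experiments, since replicates 1 and 2 were pooled in the first and replicates 3, 4 and 5 in the second. On the second component, with 11.5%, K146D replicates 1 to 3 scored between 4.55 and 14.6, beside wild type, and K152L replicates 1 to 3 between −6.96 and 0.0472, beside the other variants. MF(ALPHA)1, the α-factor gene, lay between 799 and 1087 CPM in K146D and between 794 and 1144 CPM in K152L, while both a-factor genes, MFA1 and MFA2, had too few UMIs to be tested. Of 7 markers of a cells, 4 were tested (STE2, STE6, BAR1 and AGA2) and 0 called. The summed CPM of the 7 was 28.8 to 32.7 in K146D and 27.5 to 31.6 in K152L in replicates 1 to 3. In replicates 4 and 5 it was 92.3 to 107.8 and 75.3 to 100.9. The MATα marker sum was lower in replicates 4 and 5, at 1547 to 1569 and 1375 to 1735, against 2327 to 2695 and 2467 to 2984. Why the sets differed was not tested. No 2 replicates of a variant agreed within sampling noise.

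**Figure D1:**
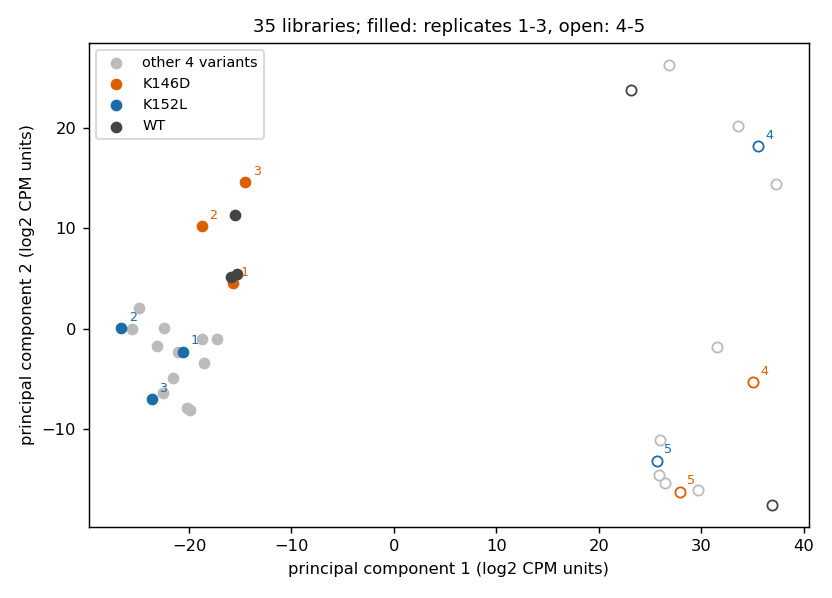
First against second principal component of log2 CPM for 35 libraries, with K146D, K152L and wild type in colour, the other 4 variants in grey, and numbers giving the replicate of K146D and K152L. Filled points (replicates 1 to 3) and open points (4 and 5) lie on opposite sides of the first component, and on the left K146D scored between 4.55 and 14.6 on the second component and K152L between −6.96 and 0.0472.

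URA3 itself did not follow the genotype. K146D held 0 URA3 UMIs in replicates 1, 2 and 3, 289 in replicate 4 and 134 in replicate 5. K152L held 22, 18 and 12 in replicates 1 to 3 and 0 in replicates 4 and 5. The order of the variants is therefore opposite in the 2 sets of replicates. A count of 0 here allows at most 0.765 CPM, before normalization, in K146D replicates 1 to 3 and 1.49 in K152L replicates 4 and 5 (3 UMIs of the library, counting error only), against 139 and 129 CPM in K146D replicates 4 and 5. Whether the 2 sets come from separate strains is not given in the sources used here, and the part of URA3 or of any other difference between the sets in the results was not tested. The results are therefore given for all 5 replicates and for each set.

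No gene passed the test between K146D and K152L over all 5 replicates. With the replicate number as a block, the stress genes GRE1 and SIP18 and the cell wall gene YLR042C were among those higher in K152L, and zinc-responsive genes among those higher in K146D. Of 6139 genes tested, 0 (0%) were called at an adjusted p of 0.05 in the edgeR quasi-likelihood fit of all libraries, and 171 (2.79%) had an unadjusted p below 0.05, of which 85 were higher in K146D (1.38%) and 86 in K152L (1.4%). DESeq2 called 2 genes (0.0326%), GRE1 and YLR042C, both higher in K152L. The median log2 fold change over all genes was −0.0043. The 95% interval of the log2 fold change lay within 1 of 0 for 5202 genes (84.7%) and within 0.5 for 3451, so for most genes a log2 difference of 1 lay outside the interval. With the replicate number as a block, which takes out what same-numbered libraries share, 18 genes were called (0.293%), 7 higher in K146D (0.114%) and 11 higher in K152L (0.179%). This block spans all 35 libraries, and numbers 4 and 5 did not stand together across genotypes. On the second component, replicate 4 scored 18.2 in K152L, −5.29 in K146D and −17.5 in wild type. Replicate 5 scored −13.1, −16.2 and 23.8 in the same order. The calls with the block carry that limit. The block gave 0 calls when fitted within the 10 K146D and K152L libraries alone, where GRE1 had an edgeR adjusted p of 0.0704 and 530 genes had an unadjusted p below 0.05.

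The gene at the head of the order by p was GRE1 (YPL223C, chromosome XVI, 128632 to 129138 on R64), a hydrophilin gene induced by osmotic and other stresses. Its levels in K152L were 46.4, 41.0, 30.4, 26.6 and 10.6 CPM in replicates 1 to 5, and in K146D 9.76, 8.73, 6.97, 12.9 and 6.4 CPM. These values rest on 26 to 197 UMIs in K152L and on 7 to 48 in K146D. K152L was higher in each of the 5 replicate numbers, and the groups overlapped only through K152L replicate 5, which lay below K146D replicate 4. Wild type was at 5.65 to 9.58 CPM, beside K146D. In replicates 1 to 3, A160P, K150A, K150I and S158H were at 18.3 to 37.5 CPM, so a level above K146D was not particular to K152L. The log2 fold change of GRE1 was −1.79 ± 0.37 (SE, n = 5 and 5), with an edgeR adjusted p of 0.11. With the replicate block it was −1.86 ± 0.24 with an edgeR adjusted p of 6.39e-05. Without K152L replicate 5 the fit with no block also called GRE1, at −2.0 with an adjusted p of 0.0149, and leaving out other single libraries gave adjusted p values up to 0.855.

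SIP18 (YMR175W, chromosome XIII, 611016 to 611255), a hydrophilin gene of osmotic stress and desiccation tolerance, was 70.0, 74.3 and 68.2 CPM in K152L replicates 1 to 3 and 13.6, 11.3 and 9.12 in those of K146D. In replicates 4 and 5 it was 45.9 and 18.7 CPM in K152L and 33.7 and 23.8 CPM in K146D, and there the variants overlapped. Wild type held 7.97 to 11.1 CPM of SIP18 in replicates 1 to 3, and A160P, K150A, K150I and S158H 30.4 to 90.2 CPM. The log2 fold change was −1.69 ± 0.41 over all replicates (adjusted p = 0.577, edgeR), −1.83 ± 0.34 with the replicate block (adjusted p = 0.00995), −2.61 in replicates 1 to 3 alone (adjusted p = 2.62e-10) and −0.11 in replicates 4 and 5 alone (adjusted p = 1). SPG4, needed for survival at high temperature in stationary phase, had the same shape with 66.9, 75.7 and 44.1 CPM against 20.5, 24.8 and 8.58 CPM in replicates 1 to 3. It was −1.76 there (adjusted p = 0.000487), and in replicates 4 and 5 it was 52.4 and 16.7 CPM in K152L and 40.0 and 42.9 in K146D, a log2 fold change of 0.28 in the other direction. Of 20 genes tested for osmotic stress and glycerol, 2 were called with the block (GRE1 and SIP18) and 3 in replicates 1 to 3 alone, where 248 of 6002 genes (4.13%) were called in all. HOG1 and its kinase gene PBS2 had log2 fold changes of −0.00 ± 0.12 and −0.07 ± 0.14.

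**Figure D2:**
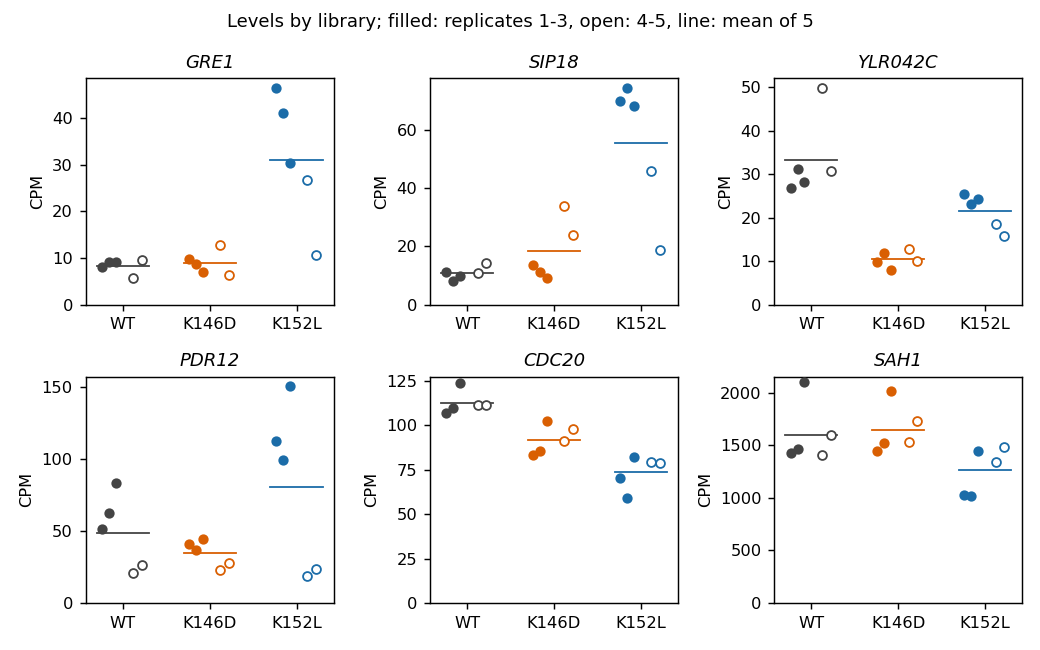
CPM of 6 genes in each library of wild type, K146D and K152L, with filled points for replicates 1 to 3, open points for 4 and 5, and a line at the mean of 5. K152L is above K146D for GRE1, SIP18, YLR042C and PDR12 in replicates 1 to 3, and for GRE1 and YLR042C also in the open points of the same number, while CDC20 and SAH1 are lower in K152L.

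Of 22 genes for heat shock and general stress, 0 were called over all replicates, 0 with the block and 5 in replicates 1 to 3. All 5 were higher in K152L (HSP26, SSA3, SSA4, HSP30 and CTT1), where 1.7% of all genes were called in that direction. The list median was −0.29 in replicates 1 to 3 and −0.09 in replicates 4 and 5. HSP26, which encodes a small heat shock protein, was 960.2, 1146 and 741 CPM in K152L replicates 1 to 3 and 247, 319.9 and 189.9 CPM in those of K146D. The same gene was, in replicates 4 and 5, 833 and 377 CPM in K152L and 773 and 592 CPM in K146D, and there the variants overlapped. Wild type held 168 to 221 CPM of HSP26 in replicates 1 to 3, and the other 4 variants 364 to 1265 CPM. The Hsp70 genes SSA3 and SSA4 were −1.13 (adjusted p = 0.000576) and −1.0 (adjusted p = 0.0315) in replicates 1 to 3 and 0.37 and −0.09 in replicates 4 and 5, by edgeR.

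YLR042C (chromosome XII, 229966 to 230451), a cell wall protein gene that responds to activity of the filamentation pathway, was higher in K152L without overlap. Its levels were 25.5, 23.1, 24.3, 18.5 and 15.9 CPM in K152L and 9.76, 11.8, 8.05, 12.9 and 10.1 CPM in K146D. The lowest K152L library was above the highest K146D library. The log2 fold change of YLR042C was −1.05 ± 0.22 (edgeR adjusted p = 0.11), and −1.06 ± 0.20 with the replicate block (adjusted p = 0.00995). It kept its direction in both sets, at −1.29 in replicates 1 to 3 (adjusted p = 1.04e-05) and −0.53 in replicates 4 and 5 (adjusted p = 1). Wild type was above both variants, at 26.8 to 49.9 CPM.

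Of 22 genes for filamentous and invasive growth, 2 were called with the block, YLR042C and PHD1, both higher in K152L, and 4 in replicates 1 to 3 alone, again all higher in K152L, where the shares of all genes called in that direction were 0.179% and 1.7%. The list median was −0.12 over all replicates, against −0.0043 over all genes. PHD1, a transcription factor gene of pseudohyphal growth, was 140, 131 and 157 CPM in K152L and 95.5, 92.2 and 82.1 CPM in K146D in replicates 1 to 3. The levels of replicates 4 and 5 were 57.5 and 69.6 CPM against 49.7 and 58.5 CPM, so K152L was higher for every replicate number, and the fit with the block gave −0.53 ± 0.12 (adjusted p = 0.0323). FRE2, a ferric reductase gene, was 17.4, 17.9 and 16.6 CPM in K152L replicates 1 to 3 and 8.13, 7.78 and 9.93 CPM in those of K146D, with −1.01 there (adjusted p = 0.00122) and 0.02 in replicates 4 and 5. FLO11, the flocculin gene of invasive growth, overlapped, with 11.0 to 31.2 CPM in K152L and 11.5 to 29.2 CPM in K146D. FLO11 was −0.85 in replicates 1 to 3 (adjusted p = 0.0428), 0.65 in replicates 4 and 5 and −0.38 ± 0.31 over all.

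The upstream genes of the pathway differed less. TEC1 was at 37.8 to 56.6 CPM in K146D and 44.1 to 65.7 CPM in K152L, with a log2 fold change of −0.27 and a 95% interval from −0.57 to 0.03. MSB2, the signalling mucin gene, was at 103 to 122 CPM in K146D and 104 to 165 CPM in K152L, at −0.28 with an interval from −0.54 to −0.02 and an edgeR adjusted p of 1. SHO1, its membrane partner, was at −0.03 with an interval from −0.22 to 0.16. A difference of 1.5 times in SHO1 is outside that interval.

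The mating genes gave no call between the variants. The 4 lists of genes for pheromone sensing and the MAPK cascade, agglutination and cell fusion, karyogamy and other pheromone-regulated functions held 57 tested genes, of which 0 were called over all replicates, 0 with the block and 1 in replicates 1 to 3. Their medians were −0.03, −0.12, 0.07 and −0.03. For 50 of the 57 the 95% interval lay within 1 of 0, a share of 87.7% against 84.7% over all genes, and for 30 it lay within 0.5. The 7 with wider intervals were MF(ALPHA)2, DIG2, FIG1, FUS1, PRM1, PRM3 and PRM6.

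**Figure D3:**
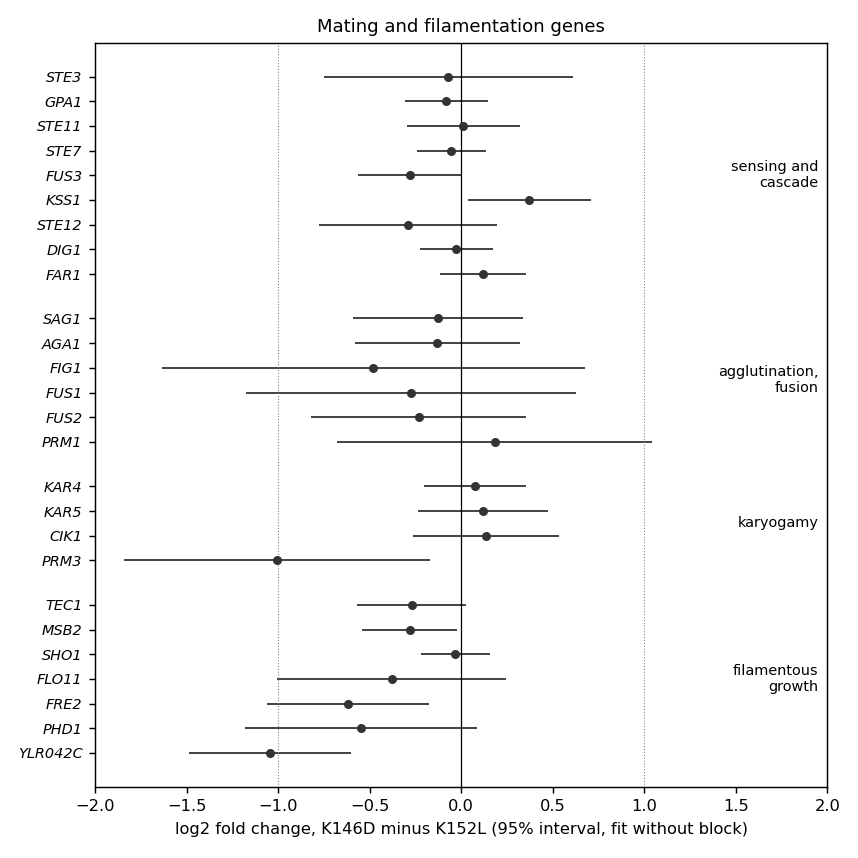
Log2 fold change, K146D minus K152L, with its 95% interval for 26 mating and filamentation genes in the edgeR fit without block; dotted lines stand at −1 and 1. The intervals of SHO1, KAR4 and FAR1 lie within 0.5 of 0 and that of YLR042C from −1.49 to −0.60.

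STE12 itself, expressed from the plasmid, was the mating gene called in replicates 1 to 3. It was 587, 506 and 634 CPM in K152L and 410, 395 and 457 CPM in K146D there, at −0.45 (edgeR adjusted p = 0.0191). It was, in replicates 4 and 5, 249 and 277 CPM in K152L and 300 and 282 CPM in K146D, at 0.16. Over all replicates the difference was −0.29 ± 0.24 (adjusted p = 1), with an exact two-sided p of 0.5. Both variants were above wild type, which had 130 to 185 CPM. LEU2, the marker gene of the same plasmid, was −0.27 in replicates 1 to 3 (edgeR adjusted p = 0.011) and 0.24 in replicates 4 and 5. Whether the plasmid as a whole differed between the variants was not tested.

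The kinase genes at the fork of the pathway leaned opposite ways without passing the test. KSS1 was 21.3, 22.2, 19.3, 20.9 and 23.8 CPM in K146D and 14.4, 16.5, 15.8, 14.6 and 21.6 CPM in K152L, at 0.37 ± 0.17 with an edgeR adjusted p of 1. FUS3 was 42.7, 47.6, 52.6, 53.3 and 45.7 CPM in K146D and 64.1, 53.1, 69.4, 52.4 and 54.5 CPM in K152L, at −0.28 ± 0.14 with an adjusted p of 1. The variants overlapped in both. FAR1, the cell cycle arrest gene, was at 82.2 to 96.0 CPM in K146D and 65.1 to 89.8 CPM in K152L, at 0.12 with an interval from −0.12 to 0.35.

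Among genes for agglutination, fusion and karyogamy, KAR4, a regulator of karyogamy genes, was at 22.6 to 29.8 CPM in K146D and 20.4 to 32.2 CPM in K152L, with an interval from −0.21 to 0.35. FUS1, the cell fusion gene used as a pheromone reporter, was 5.69, 4.48 and 5.90 CPM in K146D replicates 1 to 3 and 5.66, 5.5 and 4.14 CPM in those of K152L. FUS1 in replicates 4 and 5 was 13.3 and 16.4 CPM in K146D and 24 and 12.6 CPM in K152L, so the sets differed more than the variants. Its interval ran from −1.18 to 0.63, and a log2 difference of −1 could not be told from none. PRM3, needed for nuclear envelope fusion, was lower in every K146D library, at 0.44 to 2.15 CPM against 2.43 to 3.30 CPM, but on 1 to 9 UMIs against 7 to 12. PRM3 had a log2 fold change of −1.01 ± 0.41 and an adjusted p of 1 by edgeR. Its ranges were among the 31 of 6139 (0.505%) that did not overlap.

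Those 31 genes comprised 10 higher in K146D (0.163%) and 21 higher in K152L (0.342%). Their log2 fold changes had sizes from 0.13 to 1.05, with a median of 0.32, and only those of YLR042C and PRM3 were over 1. With the block 2 of the 31 were called, YLR042C and CDC20. CDC20, the activator of the anaphase-promoting complex, was 83.3, 85.4, 102, 91.0 and 97.8 CPM in K146D and 70.5, 58.9, 82.0, 79.4 and 78.9 CPM in K152L. It was higher in K146D by 0.31 ± 0.10 on the log2 scale (adjusted p = 1, edgeR), and by 0.32 ± 0.07 with the block (adjusted p = 0.0281). In bulk cultures a larger share of cells at a stage of the cycle and more RNA per cell cannot be told apart. HOF1, which acts in cytokinesis, was 88.6 to 97.7 CPM in K146D and 59.4 to 82.6 CPM in K152L, at 0.31 ± 0.10. SWI5, a transcription factor gene of late mitosis, was at 0.37 ± 0.13, with overlap. Of 24 genes for cyclins and the cell cycle, 1 (CDC20) was called with the block, where 0.114% of all genes were called higher in K146D. The list median was 0.11, with 16 of 24 above 0, against 2987 of 6139 over all genes. That median was 0.22 in replicates 1 to 3 and −0.003 in replicates 4 and 5.

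Of the other genes in the order by p, JLP1, a sulfonate dioxygenase gene, was 14.6 to 27.9 CPM in K152L and 9.15 to 13.7 CPM in K146D, at −0.88 ± 0.25 (adjusted p = 0.99, edgeR). PIG1, which targets a phosphatase to glycogen synthase, was 10.5 to 16.9 CPM in K146D and 6.6 to 9.87 CPM in K152L, at 0.74 ± 0.24. RPN7, a proteasome lid subunit gene, was 171 to 189 CPM in K146D and 130 to 157 CPM in K152L, at 0.26 ± 0.07 (adjusted p = 0.71). These 3 genes did not overlap between the variants.

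ECL1, VID24, SPT23 and YGL114W also did not overlap and were higher in K152L, by 0.45, 0.49, 0.24 and 0.31 on the log2 scale. YKL065W-A, ICS2, ARG8 and RTG3 were higher in K152L with overlap, at −1.53, −0.57, −0.37 and −0.31. The multidrug transporter gene PDR5 and the phospholipid synthesis gene CDS1 were higher in K146D with overlap, at 0.42 and 0.47. So were the Hsp90 cochaperone gene CPR7 and HTD2, a nuclear gene for a mitochondrial protein, at 0.30 and 0.51. In the edgeR fit without block none of these had an adjusted p below 0.71, and ICS2 was called with the block (adjusted p = 0.024).

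The 18 genes called with the replicate block drew mainly on replicates 1 to 3. All 18 kept the direction of the fit in replicates 1, 2 and 3, 17 in replicate 4 and 8 in replicate 5. The median size in that direction was 1.21, 1.15 and 1.28 on the log2 scale in replicates 1 to 3, 0.44 in replicate 4 and −0.12 in replicate 5. The 8 genes with 1 direction in all 5 were GRE1, YLR042C, PHD1, FIT3, STP4 and YCL002C, higher in K152L, and CDC20 and SAH1, higher in K146D. Leaving out any 1 library of replicates 1 to 3 left between 1 and 3 calls, while leaving out 1 of replicates 4 and 5 gave between 19 and 58. GRE1 was called in each of these 10 fits, which hold the other genotypes too, and not in the block fit of the 10 libraries alone. Of the 18 genes, 16 overlapped between the 5 and 5 libraries.

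**Figure D4:**
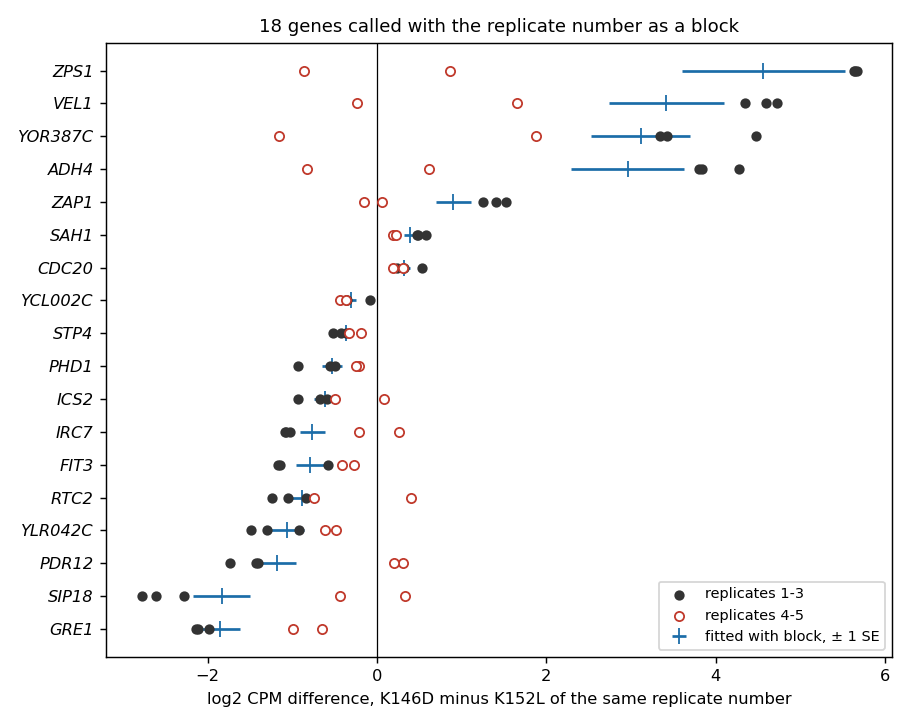
Log2 difference in CPM + 1, K146D minus K152L of the same replicate number, for the 18 genes called with the replicate block; filled points are replicates 1 to 3, open points 4 and 5, and the blue tick with bar is the fitted value ± 1 SE. For ZPS1 the filled points lie at 5.63 to 5.67 and the open points at 0.87 and −0.86, while all 5 points of GRE1 lie below 0.

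Among those 18, SAH1, the S-adenosylhomocysteine hydrolase gene, was 1444, 1517, 2012, 1529.9 and 1727 CPM in K146D and 1027, 1017, 1446, 1338 and 1480.1 CPM in K152L, at 0.40 ± 0.08 with the block (adjusted p = 0.0168, edgeR). STP4, which encodes a zinc finger protein, was −0.36 ± 0.07 with the block (adjusted p = 0.0168). PDR12, an efflux pump gene for weak acids, was 112, 98.8 and 150 CPM in K152L replicates 1 to 3 and 41.1, 36.6 and 44.3 CPM in those of K146D, but 18.5 and 23.6 CPM against 23.1 and 27.4 CPM in replicates 4 and 5. RTC2, a vacuolar amino acid transporter gene, and IRC7, a cysteine desulfhydrase gene, were −1.07 and −1.09 in replicates 1 to 3 and −0.25 and 0.03 in replicates 4 and 5. FIT3, a mannoprotein gene for retention of iron siderophores, was 253, 174 and 215 CPM in K152L replicates 1 to 3 against 112, 116 and 96.3 CPM, and 70.0 and 54.9 CPM against 57.7 and 41.1 CPM in replicates 4 and 5. Its direction held in all 5.

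Of the 7 genes called higher in K146D with the block, 5 respond to zinc, namely ADH4, ZPS1, ZAP1, VEL1 and YOR387C. Their regulator Zap1 activates zinc uptake genes, and its own gene, when zinc is scarce. ADH4 (YGL256W, chromosome VII, 15159 to 16307), an alcohol dehydrogenase gene of low zinc, was 1177, 1217 and 1478 CPM in K146D replicates 1 to 3 and 81.6, 86.4 and 75.2 CPM in those of K152L. ADH4 in replicates 4 and 5 was 708 and 113 CPM in K146D and 462 and 201 CPM in K152L, so the order turned in replicate 5. Its log2 fold change was 4.00 in replicates 1 to 3 (edgeR adjusted p = 5.33e-16), 0.34 in replicates 4 and 5 (adjusted p = 1), 2.96 ± 0.67 with the block (adjusted p = 0.0452) and 2.38 ± 0.77 without it (adjusted p = 1).

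ZPS1, a cell surface protein gene, was 1055, 1053 and 1398 CPM in K146D replicates 1 to 3 and 20.3, 20.1 and 26.5 CPM in those of K152L. In replicates 4 and 5 it was 1915 and 465 CPM in K146D and 1048 and 844 CPM in K152L. Its log2 fold change differed between the 2 sets of replicates by −5.37 ± 0.64 (interaction term, 10 libraries, adjusted p = 0.0194, edgeR), and ZPS1 was the 1 gene called by that test. ZRT1, the high-affinity zinc transporter gene, was 1956 to 2042 CPM in K146D and 331 to 570.3 CPM in K152L in replicates 1 to 3, at 2.26 (adjusted p = 3.88e-06), and 2341 and 1135 CPM against 2100.02 and 1574 CPM in replicates 4 and 5. ZAP1 was 1.40 in replicates 1 to 3 (adjusted p = 1.84e-07) and 0.02 in replicates 4 and 5, and ZRT3, the vacuolar zinc exporter gene, 0.99 (adjusted p = 2.06e-05) and −0.21. VEL1 and YOR387C are near-identical copies whose reads cannot be told apart with certainty, and were 5.31 and 4.39 in replicates 1 to 3.

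In replicates 1 to 3 the wild type stood with K146D, at 1294 to 1531 CPM for ADH4 and 819 to 1265 CPM for ZPS1, and the other 4 variants stood with K152L, at 68.2 to 99.1 CPM for ADH4 and 10.7 to 24.8 CPM for ZPS1. Those libraries held URA3 at 0 UMIs in K146D, 0 to 1 in wild type, 12 to 22 in K152L and 2 to 56 in the other 4 variants. K150I was lowest among the other 4, with 7, 6 and 2 UMIs, and its 2 UMIs cannot be told from wild type. URA3 in replicates 4 and 5 was at 134 to 289 UMIs in K146D and at 0 in K152L, and the zinc genes overlapped between them. Of the 248 genes called between K146D and K152L in replicates 1 to 3, wild type was nearer to K146D for 219 (88.3%) and the mean of the other 4 variants nearer to K152L for 230 (92.7%). These genes were selected for differing between the 2 variants in the same libraries, and the shares over all genes were not computed. Of 20 zinc-responsive genes, a list drawn up after the values had been seen, 11 were higher in K146D and 2 in K152L in replicates 1 to 3, where 2.43% and 1.7% of all genes were called in each direction, and 0 in replicates 4 and 5.

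**Figure D5:**
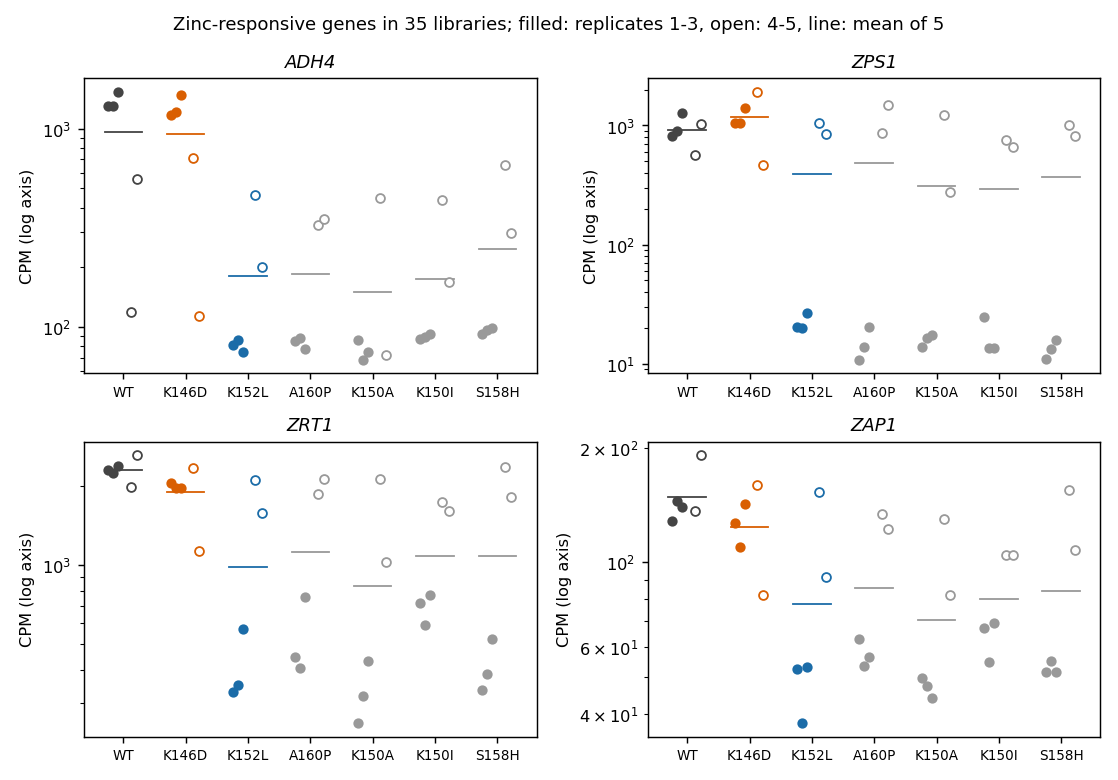
CPM on a log axis of 4 zinc-responsive genes in 35 libraries by genotype; filled points are replicates 1 to 3, open points 4 and 5, lines the mean of 5. In the filled points ADH4 is at 1177 to 1478 CPM in K146D and 75.2 to 86.4 CPM in K152L, wild type lies with K146D and the other 4 variants with K152L, and the open points overlap between genotypes.

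Among the sulfur and methionine genes, in replicates 1 to 3, 18 of 20 tested were called higher in K146D and 0 in K152L, with a list median of 2.35. Over all genes 2.43% were called higher in K146D there. In replicates 4 and 5, 0 of the list were called and its median was −1.89. STR3, a cystathionine beta-lyase gene, was 69.5, 106 and 379 CPM in K146D replicates 1 to 3 and 12.3, 14.6 and 11.9 CPM in those of K152L. In replicates 4 and 5 it was 12 and 7.31 CPM in K146D and 114 and 7.73 CPM in K152L. The high K152L replicate 4 held 266 UMIs of STR3, against 27 in K146D replicate 4. Replicate 4 of A160P, K150I and S158H was high too, with 237, 319 and 278 UMIs, as was wild-type replicate 5 with 322. Replicate 4 of K150A and wild type held 28 and 16. MUP1, the methionine permease gene, was 223, 359.96 and 1312 CPM in K146D replicates 1 to 3 against 61.5, 64.9 and 82.0 CPM, and 251.7 and 221 CPM against 609.6 and 189 CPM in replicates 4 and 5. Wild type was also high in replicates 1 to 3, with 125, 116 and 883 UMIs of STR3 against 52, 53 and 49 in K152L. For MUP1 the wild-type UMIs were 594, 559 and 3200, against 261, 236 and 337 in K152L. SUL1, a sulfate permease gene, reached 766 CPM in K152L replicate 4, with 16.1 to 28.9 CPM in the other K152L libraries and 21.1 to 86.1 CPM in K146D. In wild type SUL1 was 37.6 and 744 CPM in replicates 4 and 5. Replicate 4 of A160P, K150I and S158H held 1469, 1291 and 1460 UMIs of SUL1, against 1785 in K152L. That of K146D held 105 and that of K150A 106. Libraries of this set were therefore high in most other genotypes too.

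The genes for arginine, leucine, histidine and lysine synthesis leaned toward K152L in replicates 1 to 3. Of 34 tested, 0 were called over all replicates or with the block. In replicates 1 to 3, 11 of 33 were called higher in K152L (1.7% of all genes) and 0 in K146D. The list median was −0.20 over all replicates, −0.28 in replicates 1 to 3 and −0.02 in replicates 4 and 5. LEU4, an isopropylmalate synthase gene, was 1630.1 to 1682 CPM in K152L replicates 1 to 3 and 1419.6 and 1384 in replicates 4 and 5, all above the highest K146D library at 1327 CPM. It was −0.37 ± 0.12 (adjusted p = 1, edgeR). GCN4, the general activator of these genes, did not overlap either, at 1566 to 1787 CPM in K152L and 1415 to 1532 CPM in K146D, a log2 fold change of −0.19 ± 0.07. ARG3, of arginine synthesis, was −0.58 in replicates 1 to 3 (adjusted p = 0.00105) and −0.19 in replicates 4 and 5.

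Over all 5 replicates 0 genes were called in any of the other lists, and their medians, those of the strain and plasmid markers aside, lay between −0.18 and 0.30. With the block, 1 gene of 21 for iron and copper uptake was called, FIT3. In replicates 1 to 3, where 4.13% of all genes were called, the calls included 4 of 21 for iron and copper uptake, 4 of 24 for cell wall mannoproteins and hypoxia and 3 of 23 for amino acid and nitrogen uptake. Genes for the cytosolic ribosome (132 tested), the mitochondrial ribosome (66) and ribosome biogenesis (69) had medians of −0.06, 0.03 and 0.04, and the respiratory chain and ATP synthase (37) −0.09. The mitochondrial genome list had a median of 0.30, with 0 called over all replicates. Of its 20 genes 18 were above 0, against 2987 of 6139 over all genes. The summed CPM of the list overlapped, with 12049 to 14476 in K146D and 10768 to 15326 in K152L (p = 0.595, exact permutation test). The count of genes above 0 is therefore not a difference between the groups of libraries. TIR1, a cell wall mannoprotein gene induced by cold and anaerobic growth, was the largest in its list of 24, at −1.16 ± 0.51, with 6.87 to 49.2 CPM in K152L and 9.77 to 15.5 CPM in K146D.

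The number of calls differed widely between the experiments. Experiment 1 alone, with 2 libraries of each genotype, called 320 of 6004 genes (5.33%), 147 higher in K146D (2.45%) and 173 in K152L (2.88%). Its spread is that between replicates 1 and 2, which lay close together. Experiment 2 alone, with 3 libraries of each from both sides of the first component, called 0 of 6026 (0%), with 51 at an unadjusted p below 0.05. Replicates 1 to 3 called 248, replicates 4 and 5 called 0 of 5909, with 133 at an unadjusted p below 0.05. These counts do not show that the difference between the variants itself differed: the interaction with experiment called 0 genes by edgeR, with 36 at an unadjusted p below 0.05, and that with the 2 sets of replicates called ZPS1 only. Of the 18 genes called with the block, 17 were also called in experiment 1 and 15 in replicates 1 to 3.

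Binding by the same variants was measured in other cells by calling cards, in which Ste12 fused to a transposase leaves insertions near its sites. Those cells kept their own wild-type STE12, and the fusion was induced on galactose from the GAL1 promoter. The expression strains lacked chromosomal STE12 and carried each variant under the STE12 promoter. Of 149 named genes looked up, 23 had a peak with at least 3 UMIs in both K146D replicates within 1000 bp 5′ and 200 bp 3′ of the coding start, and 9 had one for K152L, all of them among the 23. The 14 with a K146D site alone included FUS3, with 149 and 51 UMIs for K146D and 0 and 9 for K152L, and GCN4, with 68 and 46 against 0 and 0. Both genes had a lower mean CPM in K146D, by amounts that did not pass the test. KSS1 held 1 UMI in each K146D replicate and 0 in each of K152L. Of the 18 genes called with the block, 15 had 0 UMIs of either variant in the window, GRE1, SIP18, YLR042C, ADH4 and ZAP1 among them. In 2, IRC7 and STP4, K146D alone met the threshold for a site, with 36 and 44 UMIs and with 48 and 41 UMIs. K152L was not absent there, with 2 and 13 UMIs at IRC7 and 1 and 8 at STP4. The TEC1 window held 69 and 57 UMIs for K146D and 113 and 117 for K152L, and that of MSB2 94 and 119 against 41 and 47. With 2 replicates and a normalization by library, these are descriptions with no test. The 149 genes were named by their expression or by list, and the share of all genes with such a site was not counted.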

How the data were processed

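For RNA-seq the authors deposited a table of raw UMI counts that holds 7124 genes in 35 libraries. The libraries were made with oligo-dT primers carrying a UMI, so PCR copies are not counted again and reads come from the 3′ side. The notes of the submitters name bcl2fastq, Trim Galore 0.4.1, STAR, MACS2 and the build R64, with no roles. For calling cards the deposited values are the natural log of UMIs scaled to the library total, plus 1 in 2188 peaks, from which UMIs were recovered as whole numbers within 0.001 for 100% of values.

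Counts without URA3 were fitted with edgeR 4.0.16 in R 4.3.3 (TMM factors, a filterByExpr filter, the quasi-likelihood F test and a Benjamini-Hochberg threshold of 0.05) in 1 model of 35 libraries, with K146D minus K152L as the contrast. The common dispersion was 0.0692, and 0.016 with the replicate block. The labels call the replicates biological and say no more, so p-values cover the spread between these libraries. Exact permutation tests used log2(CPM + 1). Calling-card peaks were joined to genes by R64 coordinates of RefSeq, which named 6188 of the genes. Scripts were tested on simulated data.

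Same-numbered K146D and K152L libraries deviated together in all 5 pairs (r from 0.463 to 0.711, median 0.649), and different numbers had a median r of −0.466, with 8 of 20 over 0.1. The pairing comes from the replicate numbers in the labels and this check, not from a stated shared culture. Only 3 of 5 libraries of either variant correlated best with their own number, since replicates 1 to 3 and 4 to 5 form 2 sets.

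Named genes were those called, then the next by p up to 20, up to 4 of each list by p, and STE12, TEC1, KAR4, FUS1, MSB2, SHO1, FLO11, SIP18, SPG4, GRE1 and MCM1. The genes called with the block, the zinc genes and the genes whose ranges do not overlap were chosen after their values were seen. The members and lists were chosen with earlier results of these data known. Alternatives were RLE factors, DESeq2 1.42.0, no filter, fewer libraries, experiment as a covariate, single experiments and replicate sets, the replicate block, URA3 kept, a minimum fold change, and single libraries left out. Sequences were not used here.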

Additional observations from a re-analysis of the deposited data

Results flagged for a closer look

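URA3 lies outside the tested genes and showed a signal that the wild-type libraries, at 0 to 1 UMIs, did not have. It stood at 289 UMIs in K146D replicate 4 and 134 in replicate 5, and at 22, 18 and 12 UMIs in K152L replicates 1, 2 and 3. The other 5 libraries of the 2 variants held 0.

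The K146D minus K152L difference of ZPS1 changed between the 2 sets of replicates by −5.37 on the log2 scale (interaction term, edgeR adjusted p = 0.0194), from 5.71 in replicates 1 to 3 to 0.34 in replicates 4 and 5.

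Of 126 groups of 5 libraries, each 1 gene in 1 variant, 17 had a library far from the other 4 by Dixon's test on log2(CPM + 1), where chance flags about 1 in 20. K146D replicate 5, the shallowest library, was low in 5 zinc-responsive genes, with 113 CPM for ADH4, 1135 for ZRT1, 159 for ZRT3, 3.65 for VEL1 and 0 for YOR387C. It was also low in GCN4, at 1415 CPM, and high in YKL065W-A, at 4.57 CPM. K152L replicate 4 was high in SUL1 (766 CPM), STR3 (114 CPM), YOR387C (26.2 CPM) and HTD2 (40.4 CPM). K152L replicate 5 was low in FAR1 (65.1 CPM) and FRE2 (11.0 CPM). K152L replicate 2 was high in ECL1 (78.7 CPM) and low in HOF1 (59.4 CPM). K146D replicate 4 was high in ARG8 (148 CPM), and K146D replicate 3 in MUP1 (1312 CPM).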

How the results depend on the processing

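No gene was called by edgeR with RLE factors, no filter, the 10 libraries alone, experiment 2 alone, replicates 4 and 5 alone, URA3 kept, a minimum fold change, or the replicate block within the 10 libraries, where 530 genes had an unadjusted p below 0.05. Calls were 2 with DESeq2, 1 with experiment as a covariate (GRE1), 18 with the replicate block, 97 with the block in DESeq2, 320 in experiment 1 alone, 113 in experiment 1 with only the 2 variants in the fit, and 248 in replicates 1 to 3. Leaving out 1 library gave 0 to 1 calls without the block and 1 to 58 with it, of which 58, 40, 21 and 19 came without K146D replicates 4 and 5 and K152L replicates 4 and 5. The single libraries left out of the block fit, the block in DESeq2 and the fit of 113 were chosen after seeing the data. The interaction with experiment kept 0 calls in every fit but that by replicate set, which gave 1, and with 1 library left out it gave 0. For 63 of the genes the text gives values for, 9 of 2200 values turned direction where an interval excluded 0. These were, in replicates 4 and 5, SPG4 (0.28), IRC7 (0.032), HSP26 (0.19), SSA3 (0.37) and FRE2 (0.022); in experiment 2, SSA3 (0.10); and SUL1 in experiment 1 (0.92, and 0.92 with only the 2 variants in the fit) and replicates 1 to 3 (1.56). The cause was not tested. A further 260 became calls, and 1931 kept their side of the threshold. The limits are 5 replicates in 2 sets and 1039390 UMIs in the shallowest library.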
